A study of Homo sapiens with 6 samples.

Results

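The activin and TGF-beta pathway was followed through 9 genes: the ligand genes INHBA, TGFB1 and TGFB2, the ligand trap FST, the receptor genes TGFBR1 and TGFBR2, the signal transducer SMAD3, the inhibitory SMAD7 and the induced matrix gene TGFBI. They are 9 of the 24551 genes listed in each library, and 8 of them reached a mean of at least 1 FPKM (fragments scaled to transcript length and to the mapped fragments of the library) over the 6 libraries, as 11865 of all genes did. FST was below that mean and is given by its values alone. These genes were selected on their FPKM in each line and on the change with each siRNA, so their values are a description and carry no test.

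RNA-Seq was carried out on polyadenylated RNA of 2 human cancer cell lines, DU145, a prostate carcinoma line derived from a brain metastasis, and 769-P, a line from a renal cell adenocarcinoma. In each line SPOP, the substrate-binding subunit of a cullin 3 ubiquitin ligase, was knocked down with SPOP siRNA 1 or SPOP siRNA 2, and 1 library of the line was a negative control (NC). No group had a second control library, each tissue was represented by 1 line, and nothing in the labels says whether the siRNA libraries came from separate cultures. The study's methods mention biological replicates of each sample, but the labels give a single library for each, and whether a deposited value pools replicates is not stated in the sources used here. All spreads below are therefore between 2 siRNAs or between 3 libraries of a line, and they may be technical.

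Activins are dimers of inhibin beta chains, and they share with the TGF-beta ligands a relay of paired type II and type I serine/threonine kinase receptors. The activated receptors phosphorylate SMAD2 and SMAD3, which enter the nucleus with SMAD4, and the pathway induces its own brakes, SMAD7 among them. TGF-beta signalling restrains the division of many epithelial cells and drives the synthesis of extracellular matrix and contractile proteins.

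Promoters are shown for INHBA, TGFB1 and TGFBI. INHBA was the only member past 1.5-fold with both siRNAs of a line. TGFB1 had the highest level of the members, and TGFBI encodes a secreted target. Each window of 300 bases spans the RefSeq transcription start (table build GRCh38.p14), is written 5′ to 3′ on the strand of the gene, and was placed on GRCh37 by exact match. Capitals mark the SMAD box CAGAC, sought on both strands.
INHBA chr7:41742639-41742938 (minus strand): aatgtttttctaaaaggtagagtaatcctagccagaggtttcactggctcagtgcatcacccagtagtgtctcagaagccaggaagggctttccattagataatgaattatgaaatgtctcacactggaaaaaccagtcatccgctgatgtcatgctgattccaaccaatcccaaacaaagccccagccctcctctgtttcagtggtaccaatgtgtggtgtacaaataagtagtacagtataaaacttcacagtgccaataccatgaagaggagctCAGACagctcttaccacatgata
TGFB1 chr19:41859778-41860077 (minus strand): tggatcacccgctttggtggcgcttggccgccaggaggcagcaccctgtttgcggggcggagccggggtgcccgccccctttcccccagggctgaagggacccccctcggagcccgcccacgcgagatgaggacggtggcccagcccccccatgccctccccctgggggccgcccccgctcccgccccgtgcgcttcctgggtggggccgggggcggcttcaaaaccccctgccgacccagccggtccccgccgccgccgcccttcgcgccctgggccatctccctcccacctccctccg
TGFBI chr5:135364427-135364726 (plus strand): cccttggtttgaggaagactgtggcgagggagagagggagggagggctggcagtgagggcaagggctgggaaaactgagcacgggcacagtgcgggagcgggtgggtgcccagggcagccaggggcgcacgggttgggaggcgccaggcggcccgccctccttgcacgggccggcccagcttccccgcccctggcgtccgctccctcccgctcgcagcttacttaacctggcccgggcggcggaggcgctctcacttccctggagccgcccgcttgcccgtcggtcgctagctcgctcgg
The INHBA window held 1 SMAD box, starting at position 28 after the start, and a TATAAA at position -11. The TGFB1 and TGFBI windows held none of these letters. The windows also differed in base composition, with a GC content of 43.3% for INHBA, 77.3% for TGFB1 and 72.7% for TGFBI. A SMAD box is short and stood in 45.3% of the 35116 promoter windows of the table, and TATAAA in 11.5%. The SMAD palindrome GTCTAGAC, which stood in 0.202% of all windows, was in no window of any of the 9 genes. Among the other members a SMAD box stood in the single window of TGFB2, in 4 of 8 windows of TGFBR1, 3 of 5 of SMAD3 and 2 of 3 of SMAD7, and in none of the windows of FST and TGFBR2.

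The knockdown was checked first. SPOP (chr17:47676246-47755525, minus strand; all gene positions are GRCh37, GENCODE 44) was at 16.1 FPKM in the DU145 control and at 2.77 and 2.96 FPKM with siRNA 1 and siRNA 2, or 17.2% and 18.4% of the control. In 769-P it was at 11.6 FPKM in the control and at 1.53 and 1.39 FPKM, or 13.2% and 12%. In both lines both SPOP siRNA libraries were below the control.

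The deposited values hold no read counts, so the precision of a single FPKM value is not known. Relative depth, estimated from the steps of low values, was 0.683 to 1.40 times that of the 769-P control. The DU145 control and the 769-P library with siRNA 2 stood apart: 287 and 237 of 366 olfactory receptor genes, a family of the nasal epithelium, were above 0 there, with means of 0.345 and 0.227 FPKM, against 3 to 5 such genes in the other libraries. Low values in these 2 libraries therefore stand on a raised background. DU145 carried all 5 epithelial markers at 1 FPKM or more, CDH1 among them, while the prostate luminal markers KLK3, KLK2 and TMPRSS2 were under 1 FPKM in its 3 libraries. 769-P carried the renal carcinoma markers PAX8, PAX2, CDH6 and VIM, while CA9 and NDUFA4L2 were listed at 0. The 4 endothelial markers were under 1 FPKM in every library of both lines, and the 4 leukocyte markers in every library of 769-P. In DU145 CD79A was at 2.01 to 6.11 FPKM. The values are means over a population, so that fewer cells with a transcript and less transcript per cell cannot be told apart.

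INHBA (chr7:41706766-41745432, minus strand) encodes the inhibin beta A chain, 2 of which form activin A. In 769-P it was at 10.7 FPKM in the control, 55.2 FPKM with siRNA 1 and 28.1 FPKM with siRNA 2. Both knockdown libraries were thus above the control, by 5.16 and 2.63 times in FPKM, and siRNA 1 gave the higher level. The mean of the knockdown libraries was 41.6 ± 19.1 FPKM (SD, n = 2), and the mean change on the log2(FPKM + 1) scale was 1.79 ± 0.67. The antisense gene INHBA-AS1, which overlaps INHBA, was at 0, 0.235 and 0.433 FPKM in the same 3 libraries, and whether the counting used strand is not given in the sources used here.

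The DU145 control had INHBA at 0.721 FPKM, and both SPOP siRNA libraries of that line list it at 0. On the log2(FPKM + 1) scale this was a change of -0.78 with each siRNA, past 1.5-fold, but the control value stands on the raised background of that library, and a ratio to a listed 0 was not taken. With the mean of the olfactory receptor genes subtracted, the change was -0.46 and no longer passed 1.5-fold. INHBA was the only member past 1.5-fold with both siRNAs of a line in the same direction. It counted as 1 of 8 members above the control in 769-P, where 3.6% of the 11865 genes were called upward and 3.73% downward, and as 1 of 8 below the control in DU145, where 1.19% of genes were called downward and 4.72% upward. INHBA was at or below 0.721 FPKM in DU145, so it passed the filter, and could be counted in that line, only through 769-P. The members were chosen on this contrast, so these counts are no evidence about them.

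**Figure D1:**
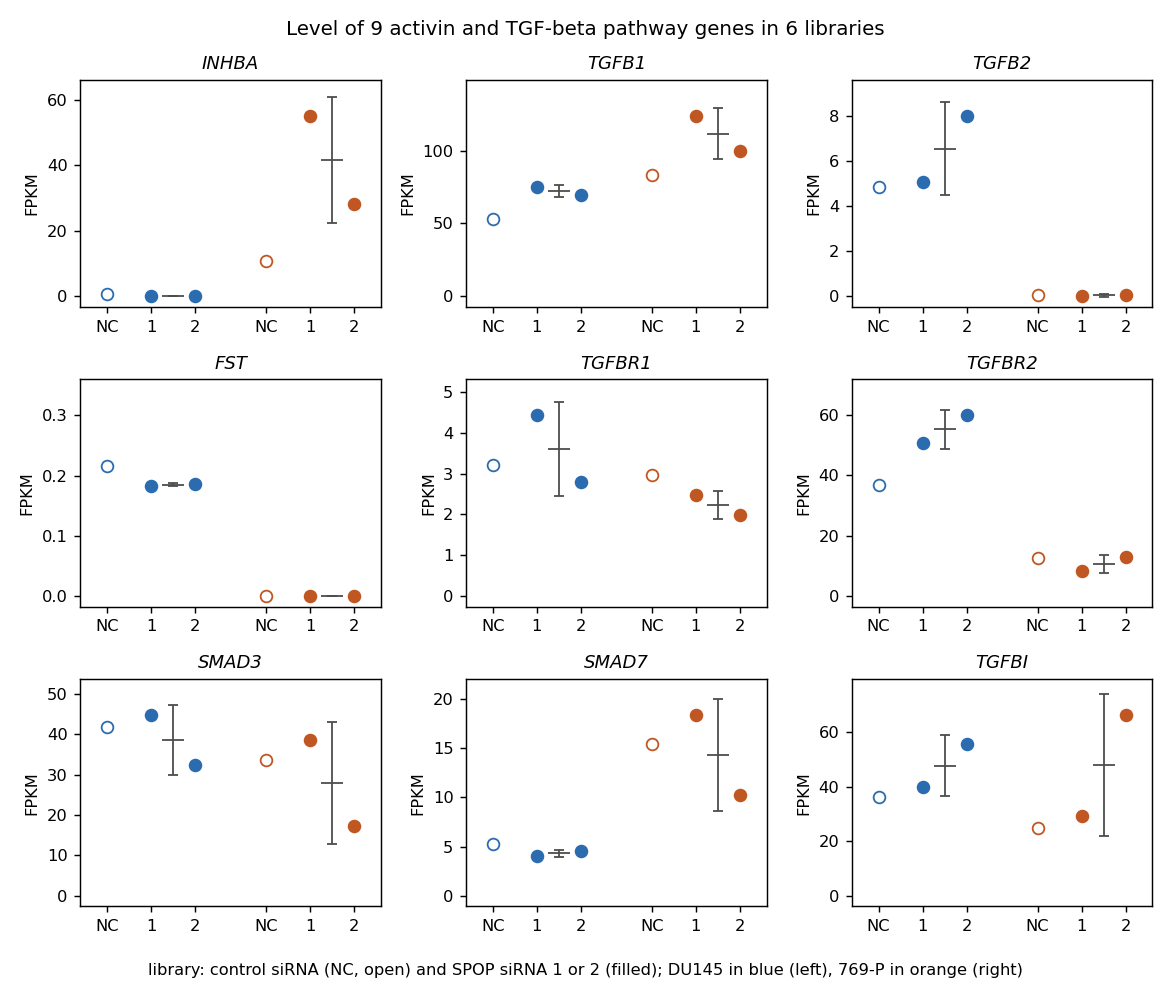
FPKM (vertical axes, linear, one scale per gene) of the 9 genes in the 6 libraries: open circles are control siRNA (NC), filled circles SPOP siRNA 1 or 2, DU145 in blue and 769-P in orange, and bars the mean ± SD of the 2 siRNA libraries. INHBA went from 10.7 to 55.2 and 28.1 FPKM in 769-P and was at or below 0.721 FPKM in DU145.

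TGFB1 (chr19:41807492-41859827, minus strand) encodes the most widely expressed TGF-beta ligand. In DU145 it was at 53.3 FPKM in the control, 75.1 FPKM with siRNA 1 and 69.4 FPKM with siRNA 2. In 769-P the values were 83.1, 124 and 99.6 FPKM in the same order. All 4 knockdown libraries were above the control of their line, by 1.41 and 1.30 times in DU145 and 1.49 and 1.2 times in 769-P, and none of them passed 1.5-fold. The mean log2 change was 0.43 ± 0.08 in DU145 and 0.41 ± 0.22 in 769-P (SD, n = 2), where the median of all 11865 genes was 0.09 and -0.03. TGFB1 and TGFBI were the members above the control in all 4 siRNA libraries. Of the genes that overlap TGFB1 on the other strand, HNRNPUL1 had the highest values. It was at 107, 131 and 127 FPKM in DU145 and at 97.7, 98.0 and 93.7 FPKM in 769-P, and strand use in the counting is not given.

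TGFB2 (chr1:218518678-218617961, plus strand), another TGF-beta ligand, was above 1 FPKM in DU145 only. It was at 4.87 FPKM in the DU145 control, 5.08 with siRNA 1 and 8.01 with siRNA 2, so that only siRNA 2 moved it beyond 1.5-fold (log2 changes 0.05 and 0.62). In 769-P it was at 0.0750, 0 and 0.0796 FPKM, too low for a change to be read.

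FST (chr5:52776456-52782964, plus strand) encodes follistatin, which binds activin and blocks it from its receptors. It was at 0.216 FPKM in the DU145 control, below the olfactory receptor mean of that library (0.345 FPKM). With siRNA 1 and siRNA 2 it was at 0.183 and 0.186 FPKM, where that mean was 0.00554 and 0.00535 FPKM. FST was listed at 0 in all 3 libraries of 769-P. The line with INHBA transcript thus had no listed FST.

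TGFBR1 (chr9:101866320-101916474, plus strand) encodes the type I TGF-beta receptor. It was low in both lines, at 3.22, 4.42 and 2.80 FPKM in DU145 and at 2.96, 2.48 and 1.99 FPKM in 769-P (control, siRNA 1, siRNA 2). In DU145 the siRNA libraries lay on both sides of the control, and in 769-P both lay below it, by -0.18 and -0.40 on the log2 scale.

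TGFBR2 (chr3:30648093-30735634, plus strand) encodes the type II receptor that binds the ligand. In DU145 it was at 36.8 FPKM in the control and at 50.7 and 59.8 FPKM with siRNA 1 and siRNA 2, or 1.38 and 1.62 times the control. In 769-P it was at 12.6, 8.41 and 12.8 FPKM, with siRNA 1 below the control and siRNA 2 next to it. TGFBR2 thus went beyond 1.5-fold with 1 siRNA of 1 line only.

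SMAD3 (chr15:67356101-67487511, plus strand), the receptor-activated SMAD that binds DNA, differed between the siRNAs. It was at 41.8 FPKM in the DU145 control, 44.8 with siRNA 1 and 32.4 with siRNA 2, and at 33.7, 38.6 and 17.2 FPKM in 769-P. In both lines siRNA 1 was slightly above and siRNA 2 below the control, with log2 changes of 0.19 and -0.93 in 769-P. No direction common to both siRNAs was present.

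SMAD7 (chr18:46446223-46477335, minus strand), the inhibitor that blocks the type I receptor and is itself induced by the pathway, was at 5.22, 4.04 and 4.55 FPKM in DU145 and at 15.4, 18.4 and 10.3 FPKM in 769-P. Its log2 changes were -0.30 and -0.16 in DU145 and 0.24 and -0.54 in 769-P. In 769-P, where INHBA was higher with both siRNAs, the siRNAs put SMAD7 on opposite sides of the control.

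TGFBI (chr5:135364677-135399507, plus strand) encodes a secreted matrix protein named for its induction by TGF-beta. It was at 36.3, 39.7 and 55.5 FPKM in DU145 and at 24.9, 29.4 and 66.2 FPKM in 769-P. All 4 knockdown libraries were above their control, but in each line siRNA 2 gave the larger difference, with log2 changes of 0.13 and 0.60 in DU145 and of 0.23 and 1.38 in 769-P. With siRNA 2 in 769-P the level was 2.66 times the control and with siRNA 1 it was 1.18 times.

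**Figure D2:**
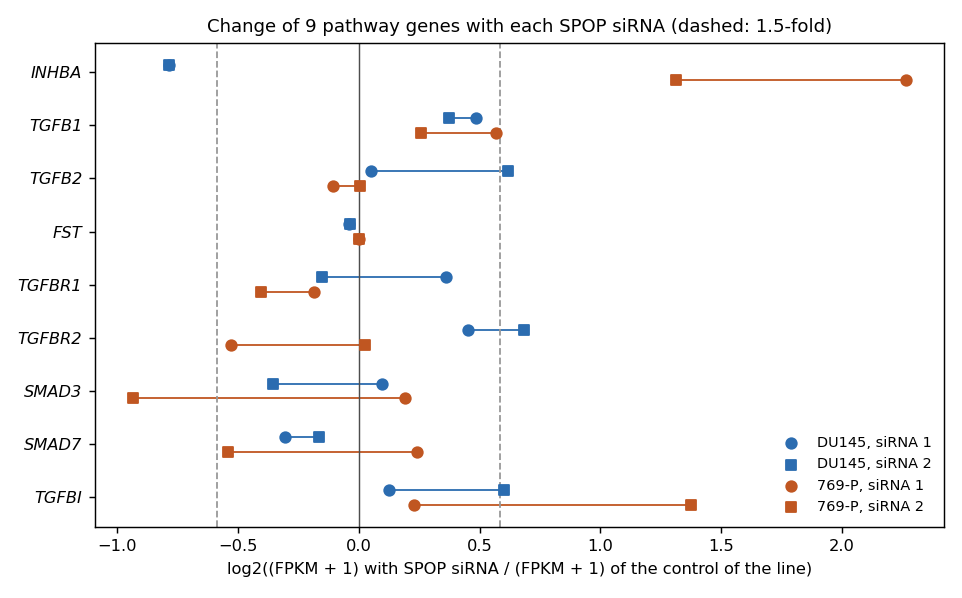
Change of each of the 9 genes on the log2(FPKM + 1) scale (horizontal axis) with SPOP siRNA 1 (circles) and siRNA 2 (squares) over the control of DU145 (blue) and 769-P (orange), a line joining the 2 siRNAs and dashed lines at 1.5-fold. INHBA alone lies beyond 1.5-fold with both siRNAs, at 2.26 and 1.31 in 769-P and at -0.78 with each in DU145, where the siRNA libraries were listed at 0 and the control stands on a raised background.

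Across the members, 4 of the 8 that passed the filter were above the control with both siRNAs in DU145 (TGFB1, TGFB2, TGFBR2 and TGFBI) and 2 below it (INHBA and SMAD7). In 769-P 3 were above with both (INHBA, TGFB1 and TGFBI) and 1 below (TGFBR1). Over the 8, the median log2 change came to 0.22 for DU145 and -0.10 for 769-P. The DU145 values include INHBA and the 769-P values TGFB2. Each was under 1 FPKM in that line and passed the filter only through the other. With 1.5-fold asked of siRNA 2 alone, TGFB2, TGFBR2 and TGFBI were past it upward and INHBA downward in DU145, where 11.3% and 3.73% of all genes were. In 769-P TGFBI and INHBA were past it upward and SMAD3 downward, beside 6.15% and 8.37% of all genes. With siRNA 1 alone INHBA was the only member past it, downward in DU145 and upward in 769-P, and the shares of all genes were 12% upward and 7.42% downward in DU145 and 10.3% upward and 9.84% downward in 769-P.

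Levels were then compared among the members and between the lines. FPKM is per transcript length, so levels can be ordered within a line. In DU145 TGFB1 (65.9 ± 11.3 FPKM, SD, n = 3), TGFBR2 (49.1 ± 11.6), TGFBI (43.8 ± 10.3) and SMAD3 (39.6 ± 6.44) led, with ranges that overlapped from each to the next. TGFB2 (5.99 ± 1.75), SMAD7 (4.6 ± 0.59) and TGFBR1 (3.48 ± 0.844) followed, again overlapping from one to the next, with INHBA (0.240 ± 0.416) and FST (0.195 ± 0.0182) last.

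In 769-P TGFB1 stood alone at the top (102 ± 20.5 FPKM). It was followed by TGFBI (40.1 ± 22.7), INHBA (31.3 ± 22.4), SMAD3 (29.8 ± 11.2), SMAD7 (14.7 ± 4.10) and TGFBR2 (11.3 ± 2.48), each overlapping the next. TGFBR1 (2.48 ± 0.482) was apart from TGFBR2 above and from TGFB2 (0.0515 ± 0.0447) below it. The 769-P SDs of INHBA and TGFBI include the differences between control and knockdown given above.

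The range over the 3 libraries of one line did not overlap that of the other for 6 members. INHBA (log2 level in DU145 minus 769-P -4.48), SMAD7 (-1.45) and TGFB1 (-0.62) were higher in 769-P. TGFB2 (2.70), TGFBR2 (2.02) and FST (0.26, at levels near 0) were higher in DU145. TGFBR1 (0.36), SMAD3 (0.46) and TGFBI (0.23) overlapped. These values pool control and knockdown libraries, and between the control libraries alone the difference was -2.76 for INHBA and 1.48 for TGFBR2. The pair of ligand genes TGFB2 and INHBA thus stood in opposite lines, and TGFBR2 was above TGFBR1 in both.

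The rest of the pathway was read from 6 lists with 87 genes in all, chosen with results of these data known. Of these, 84 were found in the files, 56 had a mean of at least 1 FPKM, and FSTL1, TGIF2 and USP15 were not used here. In DU145 4 of the 56 were called upward at 1.5-fold with both siRNAs and 1 downward. In 769-P 12 were called upward and 1 downward. Their median log2 change was 0.17 in DU145 and 0.10 in 769-P, beside 0.09 and -0.03 over all genes, and the shares of all genes called upward were the 4.72% and 3.6% given above.

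Of the 12 upward calls in 769-P, 9 were among the 22 measured TGF-beta and activin target genes, where 0 were called downward, with a median log2 change of 0.49. Those with the largest changes encode contractile and matrix proteins. ACTA2, smooth muscle actin, was at 6.67 FPKM in the control and 40.0 and 22.1 FPKM with the siRNAs. COL1A1, a chain of type I collagen, was at 1.71, 9.68 and 7.36 FPKM. TAGLN, the actin-binding transgelin, was at 1.49, 8.73 and 4.95 FPKM. For each of these genes both siRNA libraries were above the control, and siRNA 1 gave the higher value, as for INHBA. The called targets FN1 and MMP2, given below, and the member TGFBI had the higher value with siRNA 2. A link of these changes to INHBA was not tested.

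CDKN2B, the cyclin-dependent kinase inhibitor p15, was at 4.95 FPKM in the 769-P control and at 12.8 and 12.3 FPKM with the siRNAs. CDKN2B and COL1A1 are in the heat map of candidate genes that the study selected in part on these same libraries, so their place here is not independent. CDKN2B also overlaps the antisense gene CDKN2B-AS1, which was at 0.407, 0.46 and 0.346 FPKM in 769-P. IGFBP3, which binds insulin-like growth factors, was called in both lines, at 1.56, 7.04 and 16.6 FPKM in DU145 and at 1.04, 4.57 and 2.83 FPKM in 769-P. THBS1, which can activate latent TGF-beta and is also a target, was at 21.6, 60.7 and 34.7 FPKM in 769-P and at 8.09, 6.72 and 12.8 FPKM in DU145. The other 3 targets called in 769-P, named after their values were seen, were FN1 (fibronectin; 87.5, 155 and 174 FPKM), MMP2 (a matrix metalloproteinase; 1.08, 2.92 and 3.19 FPKM) and IL11 (a cytokine; 0.104, 1.53 and 0.885 FPKM). IL11 passed the filter only through DU145, where it was at 15.4, 25.0 and 7.35 FPKM. Its mean in 769-P was 0.841 FPKM, and the siRNA 2 library there has a raised background (mean 0.227 FPKM), so its call rests on low values.

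Fibroblasts carry the same contractile and matrix genes, and whether such cells contributed to the values above was not tested. The 5 fibroblast markers PDGFRA, PDGFRB, COL1A2, DCN and LUM were under 1 FPKM in every library of both lines, with a summed level of 0.0771 to 0.689 FPKM in 769-P and 0.229 to 0.286 FPKM in DU145, and DCN was listed at 0 throughout.

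**Figure D3:**
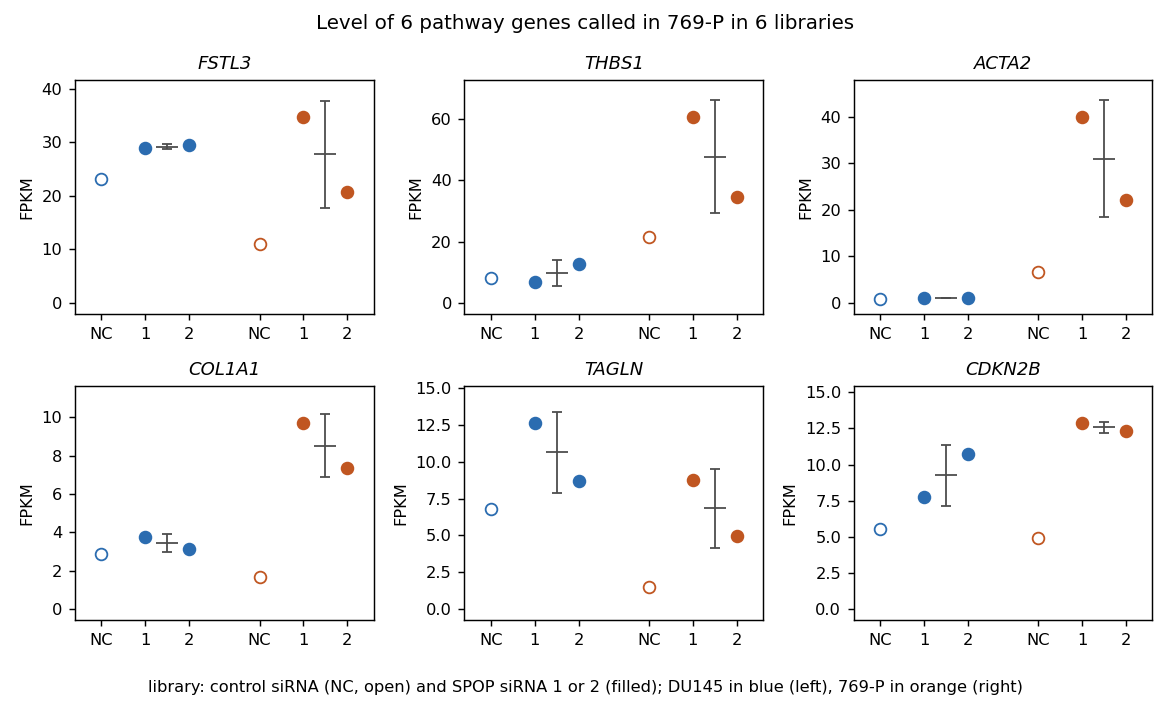
FPKM (vertical axes, linear, one scale per gene) of 6 of the pathway genes called at 1.5-fold in 769-P, in the 6 libraries: open circles are control siRNA (NC), filled circles SPOP siRNA 1 or 2, DU145 in blue, 769-P in orange, bars the mean ± SD of the 2 siRNA libraries. In 769-P both knockdown libraries lie above the control in each panel, while ACTA2 in DU145 stays between 0.906 and 1.0 FPKM.

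In DU145 the same 22 targets had 2 calls upward and 1 downward, with a median log2 change of 0.12. IGFBP3 was one of the upward calls. The other, named after its values were seen, was TGM2, a transglutaminase that crosslinks proteins, at 222, 404 and 373 FPKM. Both siRNA libraries were above the control for TGM2, while in 769-P it was at 46.7, 51.8 and 50.6 FPKM.

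Among the extracellular binding proteins and activators, 2 of 8 measured genes were called upward in 769-P and 0 in DU145. They were THBS1 and FSTL3, a follistatin-like protein that also binds activin, at 11.1, 34.7 and 20.7 FPKM in 769-P and 23.1, 28.9 and 29.5 FPKM in DU145. An activin-binding transcript was therefore present in both lines, with FST at or below 0.216 FPKM in each. Of the 13 SMADs and regulators, 1 was called upward in DU145 and 1 downward in 769-P. PMEPA1, an induced inhibitor of the receptor-activated SMADs, was at 14.0, 34.8 and 25.4 FPKM in DU145 and at 117, 135 and 152 FPKM in 769-P. SKIL, a corepressor that binds SMADs, was at 5.05, 2.25 and 2.78 FPKM in 769-P and at 2.73, 1.78 and 1.84 FPKM in DU145.

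None of the 4 other receptors and co-receptors with a mean of at least 1 FPKM was called in either line, with median log2 changes of 0.08 in DU145 and -0.20 in 769-P. The receptor inhibitor BAMBI was at 14.4, 9.44 and 13.3 FPKM in 769-P and at 2.78, 3.92 and 2.19 FPKM in DU145. CD109, a TGF-beta co-receptor, was at 10.3, 8.0 and 5.53 FPKM in 769-P and at 4.91, 6.25 and 4.99 FPKM in DU145. Of the 10 other ligands of the family 1 passed the filter, GDF11, at 7.71, 6.72 and 8.68 FPKM in DU145 and 2.50, 2.15 and 2.81 FPKM in 769-P. It was not called.

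The BMP branch uses other SMADs and was read for comparison. Of its 10 measured genes 1 was called upward in DU145 and 2 in 769-P, with median log2 changes of 0.37 and 0.13. BMP4, a ligand, was at 10.4, 20.9 and 26.2 FPKM in DU145 and under 0.3 FPKM in 769-P. The inhibitors of differentiation ID1 and ID3, the usual BMP readouts, were at 75.5, 174 and 154 FPKM and at 21.5, 43.6 and 41.6 FPKM in 769-P, both siRNA libraries being above the control. ID2 of the same family, named after its values were seen, was below the control with both siRNAs in both lines without being called, at 3.0, 1.16 and 2.37 FPKM in 769-P and at 16.2, 11.2 and 7.22 FPKM in DU145.

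**Figure D4:**
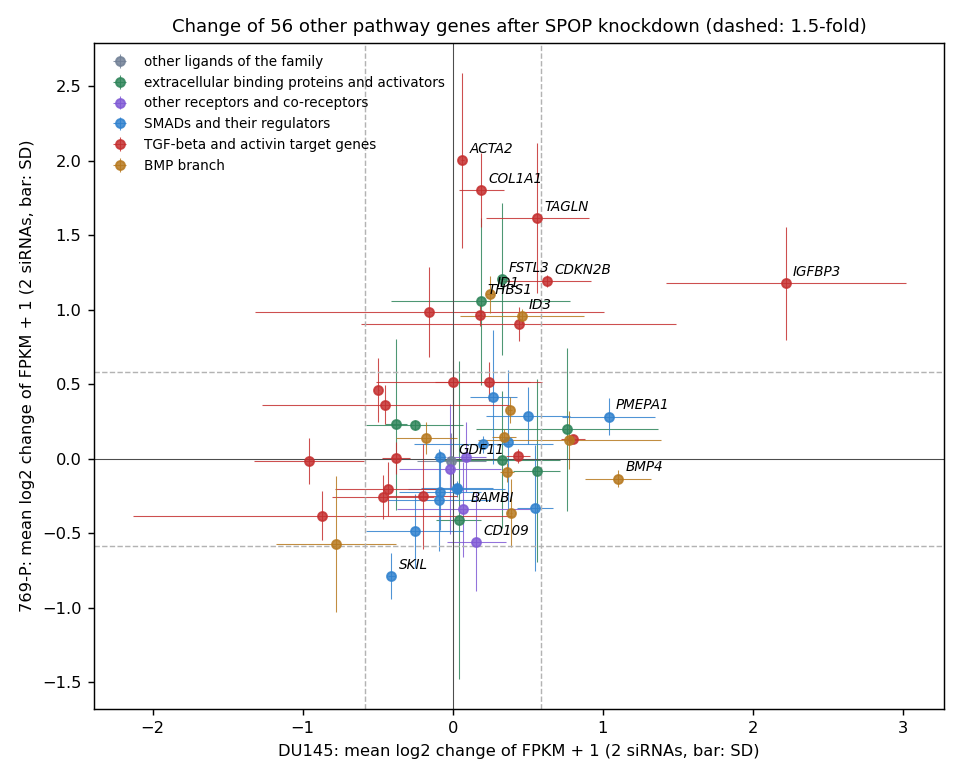
Mean change on the log2(FPKM + 1) scale of the 56 other pathway genes in DU145 (horizontal axis) and 769-P (vertical axis), coloured by list, with bars for the SD of the 2 siRNAs and dashed lines at 1.5-fold. ACTA2, COL1A1 and TAGLN lie at 2.0, 1.80 and 1.61 in 769-P, and IGFBP3 lies at 2.22 in DU145 and 1.18 in 769-P.

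None of the other pathway genes passed a test of the knockdown across genes. With limma and Benjamini-Hochberg adjustment over 11865 genes, the knockdown passed an adjusted p of 0.05 for 16 genes of DU145 (0.135%) and 12 genes of 769-P (0.101%). The change differed between the lines for 20 genes (0.169%). The number of the 56 pathway genes among them was 0 in each. At an unadjusted p under 0.05, 5 of the 56 passed for DU145, 9 for 769-P and 5 for the line-by-knockdown difference, beside 744, 827 and 325 of all genes. In the pathway, the smallest adjusted p by limma belonged to BMP4 for DU145 (0.719) and to COL1A1 for 769-P (0.392), and it was 0.999 for that difference. With 1 control library per line, the spread came from the siRNA libraries alone.

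The difference between the lines was tested on the mean of the 3 libraries of each. The spread again came only from the 2 siRNA libraries of each line, so the SEs and p-values measure differences between siRNAs. Of the 56 genes, 17 were higher in DU145 and 20 were higher in 769-P by limma (adjusted p under 0.05), where 29.4% of all tested genes were higher and 16.1% lower in DU145. ACTA2 was lower in DU145 by a log2 difference of -3.30 (SE 0.26, adjusted p = 0.000581), PMEPA1 by -2.48 (SE 0.17, adjusted p = 0.000422), THBS1 by -1.89 (SE 0.32, adjusted p = 0.00661) and BAMBI by -1.76 (SE 0.25, adjusted p = 0.00354). BMP4 was higher in DU145 by 3.98 (SE 0.18, adjusted p = 0.000197), TGM2 by 2.67 (SE 0.13, adjusted p = 0.00021), GDF11 by 1.32 (SE 0.19, adjusted p = 0.00391) and ID3 by 1.0 (SE 0.20, adjusted p = 0.0107). Of the 22 targets 6 were higher in DU145 and 11 in 769-P, and of the 10 BMP genes 5 were higher in DU145 and 1 in 769-P. FSTL3, CDKN2B and ID1 did not pass (adjusted p = 0.194, 0.344 and 0.10). These differences pool control and knockdown libraries, so changes with the knockdown enter them. In the control libraries alone ACTA2 was at 0.906 FPKM in DU145 and 6.67 FPKM in 769-P. BMP4 was at 10.4 FPKM in the DU145 control and 0.271 FPKM in the 769-P control.

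INHBA was the member with the largest changes, and the genes with the most similar pattern were sought among the other 11864, by the distance over the 4 log2 changes. The nearest were LHB (distance 0.29), BRINP1 (0.75), KCP (0.80), CGB5 (0.83) and CGB7 (0.84). LHB, CGB5 and CGB7 are near-identical copies in the luteinizing hormone and chorionic gonadotropin beta cluster, so their shared reads make single values uncertain. In 769-P CGB5 was at 34.4, 154 and 151 FPKM and LHB at 2.30, 12.3 and 7.25 FPKM. In DU145 CGB5 was at 2.47 FPKM in the control and 0.837 and 1.28 FPKM with the siRNAs. BRINP1 and KCP were under 0.8 FPKM in the 769-P control and, like INHBA, higher with siRNA 1 than with siRNA 2. Both were under 1 FPKM throughout DU145, so they passed the filter through 769-P alone. Their DU145 values were 0.240, 0 and 0 FPKM for BRINP1 and 0.426, 0.136 and 0.207 FPKM for KCP. LHB was at 1.90, 0.804 and 0.817 FPKM in DU145, and CGB7 at 1.24, 0.837 and 0 FPKM. The DU145 part of the distance thus rests on low values and on a control with a raised background (mean 0.345 FPKM), as for INHBA. The distance is a description over 4 changes that share their controls in pairs.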

How the data were processed

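Per the labels, polyadenylated RNA of 6 libraries was sequenced. The submitters' processing notes name FastQC, cutadapt, TopHat2 and hg19, and the study's methods name Cufflinks. Versions, annotation and strand use are not given in the sources used here. The authors deposited 1 FPKM value per gene and library, normalized for transcript length and mapped reads, which gives no read count.

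Rows of one symbol were summed, and log2(FPKM + 1) was used, which understates changes of low genes. Genes had to average 1 FPKM or more over the libraries. A gene was called when both siRNAs of a line passed 1.5-fold over the control in 1 direction. limma 3.58.1 (R 4.3.3) was fitted with 4 groups and a trend, after a check on simulated data, with Benjamini-Hochberg adjustment over all 11865 genes. Positions come from GENCODE 44 on GRCh37 and promoters from RefSeq.

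The members and lists were chosen with earlier results of these data known. Named were SPOP, the members, up to 6 called genes per list by size of change (where none was called, the 2 largest changes), and the 5 genes nearest to INHBA. Some genes counted in the lists are not reported here by name. Alternatives were a pseudocount of 0.1, removal of the filter or its rise to 5 FPKM, 2-fold, centring, quantile normalization, background subtraction, no trend, a replicate block, the control libraries only, and each siRNA library left out.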

Additional observations from a re-analysis of the deposited data

Results flagged for a closer look

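The change of INHBA was of opposite direction in the lines with both siRNAs of each: subtracting the 769-P log2 change from the DU145 one gave -2.57. The members were not tested, and the DU145 change was between 0.721 FPKM in a control library with a raised background and a listed 0. CD109, a TGF-beta co-receptor, was above the control with both siRNAs in DU145 and below it with both in 769-P, a difference of 0.72 (limma adjusted p = 0.999). BMP4 was above the control with both siRNAs in DU145 and below it in 769-P, where it was under 0.3 FPKM, a difference of 1.23 (limma adjusted p = 0.999). For CD109 the log2 changes with siRNA 1 and siRNA 2 were 0.30 and 0.02 in DU145 and -0.33 and -0.79 in 769-P. The median over all genes with siRNA 2 in DU145 was 0.12, so the upward direction of CD109 there rests on siRNA 1. Neither CD109 nor BMP4 passed the test of the difference.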

How the results depend on the processing

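Without a second control per line and without counts, neither the error of a control nor the depth of a value could be set, and leaving out an siRNA library left its arm with 1 sample, assumed to vary like the others. Where values moved, the cause was not tested beyond the alternative itself. With both siRNAs kept, 56 of 70 alternative values of the members' log2 changes stayed within 1 SD of siRNAs and 14 moved. The sign differed between the siRNAs for 6 of 18 changes, TGFBR1 and SMAD3 in DU145 and TGFB2, TGFBR2, SMAD3 and SMAD7 in 769-P, so those have no direction common to both. For TGFBI in 769-P, siRNA 1 alone gave 0.23 and siRNA 2 alone 1.38. Of their line differences, 18 of 26 stayed and 8 moved. INHBA in 769-P ranged from 1.31 to 2.26 and in DU145 from -3.04 to -0.44.

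Members called upward numbered 0 to 3 in DU145 and 1 to 2 in 769-P with 1 siRNA alone, and downward 1 in DU145 and 0 to 1 in 769-P. INHBA lost its DU145 call (0 members) at 2-fold and with the background subtracted.

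Other pathway genes called upward were 1 in DU145 and 5 in 769-P at 2-fold, and downward 0 in both. With a pseudocount of 0.1 or no filter 2 were called downward in DU145, and with a mean of at least 5 FPKM 0 in 769-P. With 1 siRNA alone 7 to 13 were called upward and 4 downward in DU145, and 14 to 15 upward and 3 to 4 downward in 769-P.

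Of all genes, centring gave 341 upward and 242 downward calls in DU145, so that 58.5% instead of 79.9% of calls were upward (56.8% instead of 49.1% in 769-P). At 2-fold there were 79 and 39 in DU145 and 78 and 67 in 769-P. Background subtraction gave 841 and 92 in DU145. A pseudocount of 0.1 gave 323 downward in DU145 and 730 upward and 759 downward in 769-P. With no filter 498 were downward in DU145. With a mean of at least 5 FPKM 62 were downward in DU145 and 271 in 769-P. With 1 siRNA alone there were 1345 to 1428 upward and 442 to 880 downward in DU145, and 730 to 1221 and 993 to 1167 in 769-P.

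limma calls for the knockdown in DU145 were 1186 with no filter, 4 at a mean of at least 5 FPKM and 0 to 30 with an siRNA library left out. In 769-P they were 148 with no filter and 0 to 7 with a library left out. Those for the difference were 0 with a pseudocount of 0.1, 1202 with no filter, 3 at 5 FPKM, 10 with quantile normalization and 0 to 37 with a library left out. Without 769-P siRNA 1 or siRNA 2 all 3 counts were 0. Line differences were 3537 at 5 FPKM and 2788 to 4008 with a library left out. Of pathway genes, 9 were higher in DU145 with no filter, and 10 to 14 higher and 13 to 19 lower with a library left out. The fewest came without a 769-P siRNA library, with 2788 genes without siRNA 1 and 2825 without siRNA 2, and 10 pathway genes higher in DU145 in both.

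The siRNA number is shared by the lines, but nothing says that it pairs cultures. The change from siRNA 1 to siRNA 2 correlated at 0.27 between the lines across 11865 genes. With it as a replicate block, limma called 18 genes in DU145, 14 in 769-P, 8 for the difference and 6310 between the lines.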
